A study of Homo sapiens with 6 samples.

Results

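Desmosomes are spot-like junctions that tie the keratin filaments of neighbouring epithelial cells together. Cadherins of the desmoglein (DSG) and desmocollin (DSC) kinds bridge the gap between cells, plakophilins (PKP) and plakoglobin (JUP) bind their tails inside the cell, and desmoplakin (DSP) links that plaque to the keratins. Simple epithelia such as the bile duct lining are known for DSG2, DSC2 and PKP2, whereas DSG1, DSG3, DSC1, DSC3 and PKP1 are known mainly from stratified epithelia such as the epidermis. The 10 genes described here are DSG2, DSG3, DSC2, DSC3, DSP, PKP1, PKP2, PKP3, PKP4 and PERP, which encodes a tetraspan membrane protein that desmosomes need in mouse skin. They were chosen by name and matched to 10 rows outside the alternative haplotypes and patches, in a table of 64253 genes.

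RNA sequencing was done on H69 cells, a human cholangiocyte line immortalised with the SV40 large T antigen, at passages 30 to 32. The treated group was given TGF-beta (recombinant, human; 10 ng/ml) for 16 h and the other group vehicle, with 3 libraries each. This cytokine acts through SMAD proteins and can weaken epithelial junctions in many cell types. The series addresses which genes this cytokine changes in cholangiocytes. No label says whether the 3 libraries of a group were separate cultures, so the spread behind the p-values may be technical.

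Among the 10 members the largest called changes with TGF-beta were in 2 plakophilins. PKP1 rose 6.74-fold, while PKP2 fell to 0.532 of its vehicle level. DSG2 and PERP rose by small amounts and PKP4 fell by a small amount, at 1.20, 1.14 and 0.884 of their vehicle levels. DSP and PKP3 were not called, nor were DSC2 and DSC3, which had 78 reads or fewer in each library. Of the 9 members tested, 3 were called higher and 2 lower. A call means a Benjamini-Hochberg adjusted p below 0.05 over all 20992 genes tested, from the quasi-likelihood test of edgeR. Over all genes tested 40.1% were called, 19.7% higher and 20.4% lower, and with 9 members the count of 5 shows nothing particular to desmosome genes.

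**Figure D1:**
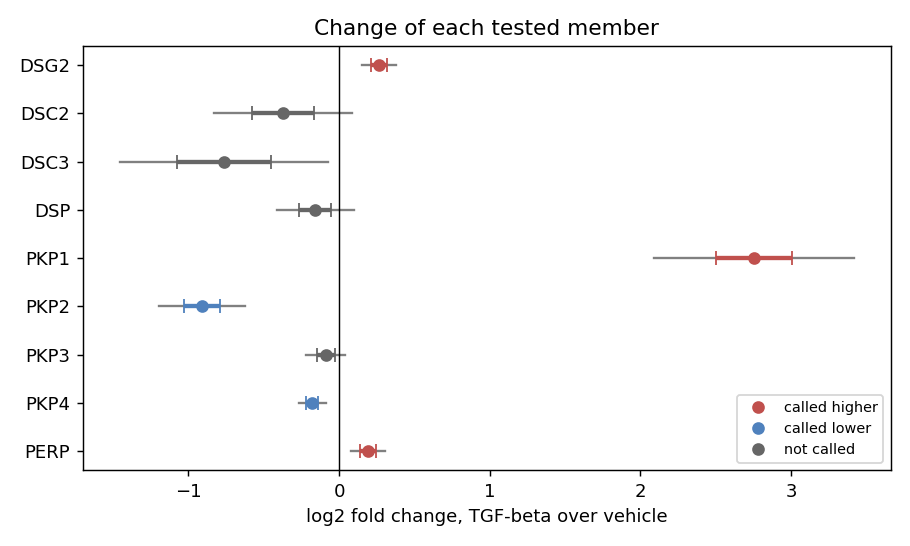
Log2 fold change of each tested member, TGF-beta over vehicle (points), with the standard error (thick bars) and the 95% confidence interval (thin lines), from 3 libraries per group. PKP1 stands at 2.75 and PKP2 at -0.91, and the other called members lie between -0.18 and 0.26.

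The libraries held 37205862 to 47314515 reads in genes with TGF-beta and 39971568 to 54160521 with vehicle. Levels are given as CPM, counts scaled by library size, with TMM factors, where 1 CPM is 35.7 to 56.2 reads. Vehicle replicate 1 stood apart from vehicle replicates 2 and 3. The second principal component, with 11.6% of the variance, placed it at 36.6 against -14.9 and -18.7. Some results are given without it as well, but not all those in which it differed from the other vehicle libraries. Without it 5428 genes were called higher and 5556 lower of 21781 tested. With all libraries these were 4145 and 4278 of 20992, so leaving it out added calls over all genes. Of 9 cholangiocyte markers 6 were tested, of which KRT7 and SLC4A2 were called higher and SOX9 (log2 -1.76) and EPCAM (-0.48) lower, with adjusted p = 0.000572 for SOX9 and 0.00391 for EPCAM by edgeR. The list summed to 3797 to 4175 CPM with TGF-beta and 2110 to 2564 CPM with vehicle, mostly KRT7, with CFTR at 0 in every library and SCTR at 0 to 6 reads. Of 8 genes of the cornified epidermis, KRT1, LOR, SPRR1A and DSC1 had no read in any library, and the summed level of the list was 18.1 to 19.8 CPM with TGF-beta and 18.4 to 19.7 CPM with vehicle, nearly all of it KRT10, which was not called. The 2 other tested genes of that list were scarce. IVL was called higher (0.559 CPM with TGF-beta and 0.142 CPM with vehicle) and FLG lower (0.368 CPM with TGF-beta and 1.62 CPM with vehicle), with adjusted p = 0.00313 and 7.86e-05 by edgeR. Genes listed for fibroblasts summed to 400.1 to 439 CPM with TGF-beta and 195 to 214 CPM with vehicle, with 3 of 5 tested higher and 1 lower, LUM at 0 with TGF-beta and DCN under 1 CPM, and their part in the results below was not tested. In such bulk samples fewer cells of a type and less RNA per cell cannot be told apart.

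Sequence before the RefSeq transcript start is shown for PKP1, the member that rose most, and for DSG2 and DSP, the most abundant cadherin and the plaque linker. Each line gives the 250 bases before the transcript start, 5′ to 3′ on the gene's strand, from RefSeq on GRCh38.p14. The windows searched lie at chr1:201283256-201283555 (plus strand) for PKP1, chr18:31497927-31498226 (plus strand) for DSG2 and chr6:7541421-7541720 (plus strand) for DSP, and include the 50 bases after the start, which are not printed. Capitals mark CAGGTG or its reverse complement CACCTG, an E-box form known to bind SNAI and ZEB repressors, and CAGAC or its reverse complement GTCTG, a short SMAD-binding motif.
PKP1: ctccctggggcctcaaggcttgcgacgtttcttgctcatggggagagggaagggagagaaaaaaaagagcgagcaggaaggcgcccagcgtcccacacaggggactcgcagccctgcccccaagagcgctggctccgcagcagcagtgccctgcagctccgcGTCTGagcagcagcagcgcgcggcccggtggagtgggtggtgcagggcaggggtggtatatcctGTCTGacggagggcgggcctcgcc
DSG2: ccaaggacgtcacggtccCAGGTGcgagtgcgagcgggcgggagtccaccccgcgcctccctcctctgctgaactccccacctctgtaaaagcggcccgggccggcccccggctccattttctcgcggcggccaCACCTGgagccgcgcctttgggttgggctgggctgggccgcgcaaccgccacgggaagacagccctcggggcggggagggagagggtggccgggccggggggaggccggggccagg
DSP: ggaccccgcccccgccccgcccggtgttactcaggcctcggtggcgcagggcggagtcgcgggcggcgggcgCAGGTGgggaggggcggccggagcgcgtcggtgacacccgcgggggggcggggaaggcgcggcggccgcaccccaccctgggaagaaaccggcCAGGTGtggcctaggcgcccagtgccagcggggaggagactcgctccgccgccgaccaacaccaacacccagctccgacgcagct

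DSG2 and DSP each held 2 copies of the CAGGTG E-box, at 232 and 116 bases before the start in DSG2 and at 178 and 85 bases in DSP. PKP1 held none of these and 2 copies of the SMAD motif, at 88 and 24 bases before its start. By the GENCODE bounds the genes begin within the printed bases, at 201283452 for PKP1, 31498043 for DSG2 and 7541575 for DSP. In each of them the copy nearer the RefSeq start therefore lies inside the gene, and only the farther copy lies before it. No marked motif overlapped another. The 8 members with an entry had 10 windows, as PKP4 and DSC2 had 2 each. The E-box was found in 3 of the 10 windows (those of DSG2 and DSP and one of DSC2). It was found in 20.6% of all 35116 windows of this length. CAGAC was found in 4 of the 10 windows (of PKP1, PKP4, DSC2 and DSG3) and in 45.3% of all windows. TGANTCA, the AP-1 motif, occurred only in the PERP window among the members and in 7.71% of all windows. PKP2 and PKP3 are not shown. These are matches of letters and no binding was measured.

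Among the desmosomal cadherins, DSG2 made up nearly all of the signal. DSG2 is the desmoglein of simple epithelia and the heart (hg38 chromosome 18, 31498043 to 31549008). It measured 301, 291 and 296 CPM in TGF-beta libraries 1 to 3 and 264, 244 and 232 CPM in vehicle libraries 1 to 3. All 3 treated libraries lay above all 3 vehicle libraries. The log2 fold change was 0.26 with a standard error (SE) of 0.05, with adjusted p = 0.00218 by edgeR. Scaling by library totals alone, which moved the median of all genes to -0.14, left DSG2 uncalled at 0.14 (adjusted p = 0.0514 by edgeR).

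The 3 other cadherin members were scarce in both groups. DSC2, the desmocollin that pairs with DSG2 in simple epithelia, had 31, 38 and 34 reads in the TGF-beta libraries and 37, 78 and 54 reads in the vehicle libraries. That is 0.861 ± 0.0203 CPM with TGF-beta and 1.10 ± 0.258 CPM with vehicle (mean ± SD, n = 3), with the treated libraries all lower but vehicle replicate 1 close to them. Its log2 fold change was -0.37 (95% interval -0.83 to 0.09, adjusted p = 0.180 by edgeR).

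DSC3, a desmocollin of basal epidermal cells, had 9, 8 and 9 reads with TGF-beta and 12, 23 and 21 with vehicle. It met the low-count filter of 0.227 CPM in 1 treated and 3 vehicle libraries, so it was tested because of its vehicle level. The log2 fold change was -0.77 (SE 0.31, adjusted p = 0.0746 by edgeR). Without vehicle replicate 1, DSC2 (-0.50) and DSC3 (-0.90) were both called lower, with adjusted p = 0.0446 and 0.0419 by edgeR.

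DSG3, the desmoglein targeted by antibodies in pemphigus vulgaris, had 4, 1 and 0 reads in TGF-beta libraries and 4, 4 and 4 reads in vehicle libraries, and was not tested. No change was detectable at this depth, since a count of 0 in TGF-beta replicate 3 allows up to 3 reads, or 0.0774 CPM, counting error only. Of the other cadherins of the cluster, DSC1 had 0 reads in every library, DSG1 had 2 reads in TGF-beta replicate 1 and none elsewhere, and DSG4 had 1, 0 and 0 reads with TGF-beta and 4, 0 and 1 with vehicle.

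**Figure D2:**
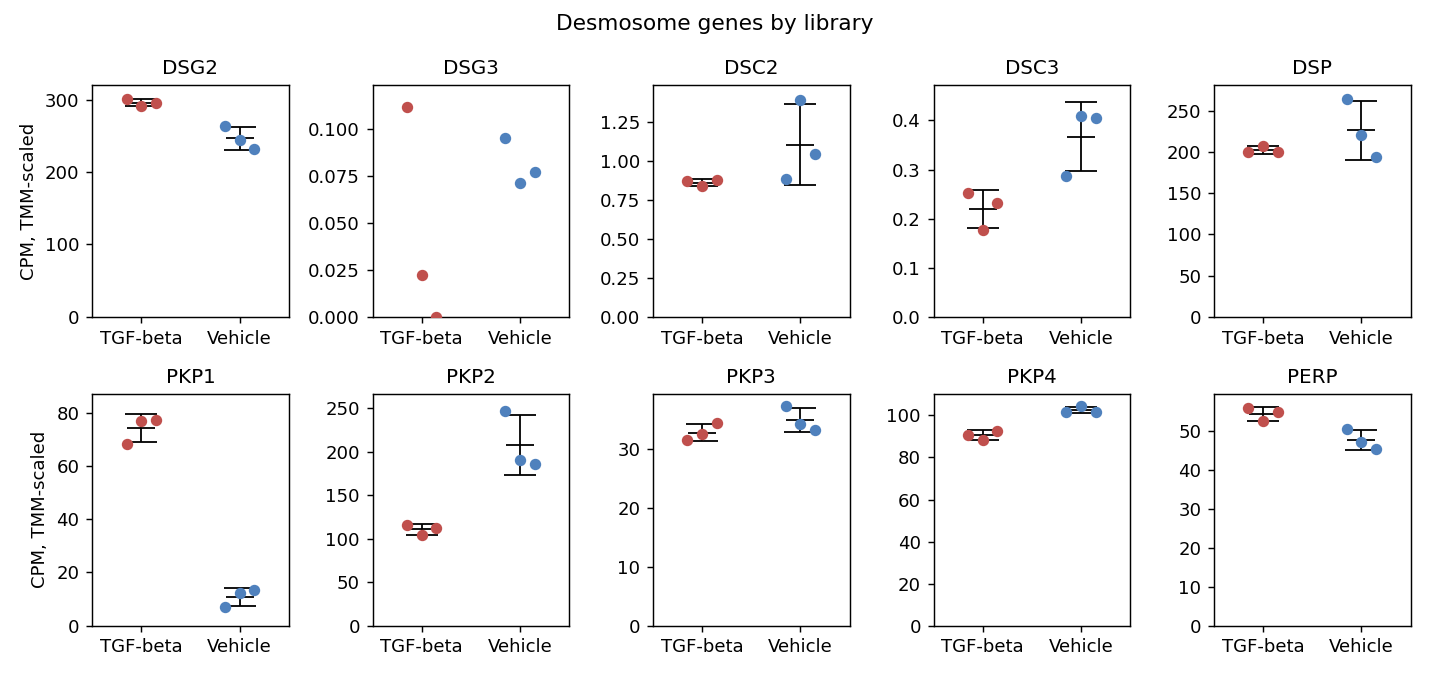
TMM-scaled CPM of the 10 members in each library (points: TGF-beta libraries 1 to 3 on the left of each panel, vehicle libraries 1 to 3 on the right), with the mean and SD (bars, n = 3), which are left out for DSG3 because it had 0 to 4 reads per library. Each panel has its own axis from 0. PKP1 lies at 68.5 to 77.5 CPM with TGF-beta and at 7.06 to 13.3 CPM with vehicle, and PKP2 at 104 to 116 CPM and at 186 to 247 CPM.

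All 7 desmosomal cadherin genes sit in 1 stretch of chromosome 18 (hg38, 30990008 to 31549008), the desmocollins on the minus strand and the desmogleins on the plus strand in GENCODE 29. Only DSG2, at one end, was expressed at more than 1.39 CPM in any library. The antisense gene DSG2-AS1 overlaps the end of DSG2 and measured 13.4 ± 1.10 CPM with TGF-beta and 10.3 ± 1.74 CPM with vehicle (log2 0.38, SE 0.12, adjusted p = 0.0280 by edgeR). It had 4.34% as many reads as DSG2, and as no strand setting is stated its reads and those of DSG2 cannot be told apart. Of the nearest tested protein-coding neighbours, CDH2, which encodes N-cadherin, rose (log2 0.74, SE 0.04) and B4GALT6, a glycosyltransferase gene, fell (log2 -0.74, SE 0.11), with adjusted p = 2.63e-07 and 0.000472 by edgeR. CDH2 ends at 28177446, far before the stretch begins, whereas B4GALT6 starts at 31622247, close after its end.

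Levels of different genes were compared per length, as the deposited RPKM (reads scaled by gene length and library size). DSG2 held 99.7%, 99.8% and 99.8% of the summed RPKM of the 4 cadherin members in the TGF-beta libraries and 99.7%, 99.5% and 99.6% in the vehicle libraries. The RPKM of DSG2 was 687 ± 11.7 times that of DSC2 with TGF-beta and 465 ± 124 times with vehicle (SD, n = 3). For this ratio an exact permutation test, two-sided, gave p = 0.1, which is the smallest p that 3 against 3 libraries allow, and the adjusted value over the 14 sums, shares and ratios so tested was 0.127.

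The plakophilins are armadillo-repeat proteins that cluster desmosomal cadherins and bind desmoplakin. PKP1, the plakophilin of the upper layers of stratified epithelia (ENSG00000081277, hg38 chromosome 1, 201283452 to 201332993), measured 68.5, 77.2 and 77.5 CPM in the TGF-beta libraries and 7.06, 12.4 and 13.3 CPM in the vehicle libraries. The lowest treated library was thus far above the highest vehicle library, and vehicle replicate 1 was the lowest of all. The log2 fold change was 2.75 (SE 0.25, 95% interval 2.09 to 3.42) with adjusted p = 0.00112 by edgeR, and 2.53 without vehicle replicate 1.

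PKP2, the most widespread plakophilin, found in simple epithelia and heart muscle (ENSG00000057294, hg38 chromosome 12, 32790745 to 32896840), measured 116, 104 and 112 CPM with TGF-beta and 247, 190 and 186 CPM with vehicle. The groups did not overlap, and here vehicle replicate 1 was the highest library. The log2 fold change was -0.91 (SE 0.12, 95% interval -1.20 to -0.62, adjusted p = 0.00138 by edgeR). Without vehicle replicate 1 it was -0.77.

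PKP4, also called p0071, which is found at adherens junctions as well as desmosomes, measured 90.8, 88.4 and 92.8 CPM with TGF-beta and 102, 104 and 102 CPM with vehicle. Each treated library lay below each vehicle library, and the spread within each group was small. PKP4 fell by 0.18 on the log2 scale (SE 0.04, adjusted p = 0.00590 by edgeR). An antisense gene overlapping PKP4 had 3.50% as many reads as PKP4.

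PKP3, found in the desmosomes of most epithelia, measured 31.5, 32.5 and 34.4 CPM with TGF-beta and 37.3, 34.3 and 33.3 CPM with vehicle, and the groups overlapped. Its log2 fold change was -0.09 (95% interval -0.22 to 0.04, adjusted p = 0.259 by edgeR). PKP3 was called lower with library totals alone (-0.22) and by limma on log2(RPKM + 1) and log2(RPKM + 0.1) (-0.14 and -0.17), with adjusted p = 0.0117 by edgeR and 0.0461 and 0.0457 by limma.

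Shares of the summed plakophilin RPKM within a library do not depend on library scaling. PKP1 held 24.3%, 27.6% and 26.4% in the TGF-beta libraries and 2.0%, 4.08% and 4.47% in the vehicle libraries. PKP2 held 36.3%, 32.8% and 33.7% with TGF-beta and 61.8%, 55.1% and 55.0% with vehicle. Neither share overlapped between groups, whereas those of PKP3 (18.9 ± 0.457% and 18.0 ± 0.592%) and PKP4 (20.8 ± 0.241% and 21.1 ± 2.02%, TGF-beta first in each pair, SD, n = 3) did. For PKP4 the overlap rested on vehicle replicate 1. PKP4 held 21.0%, 20.6% and 20.6% with TGF-beta and 18.8%, 22.3% and 22.3% with vehicle.

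By the same exact permutation test p was 0.1 for the PKP1 and PKP2 shares, the smallest possible with 3 against 3 (0.127 adjusted over 14), and 0.2 and 1.0 for PKP3 and PKP4 (0.233 and 1.0 adjusted). The ratio of PKP1 to PKP2 was 0.671, 0.842 and 0.783 with TGF-beta and 0.0324, 0.0740 and 0.0813 with vehicle. PKP2 therefore had the larger RPKM in every library. The summed plakophilin RPKM was 18.9 ± 0.402 with TGF-beta and 22.5 ± 2.10 with vehicle (SD, n = 3, exact p = 0.1, 0.127 adjusted).

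**Figure D3:**
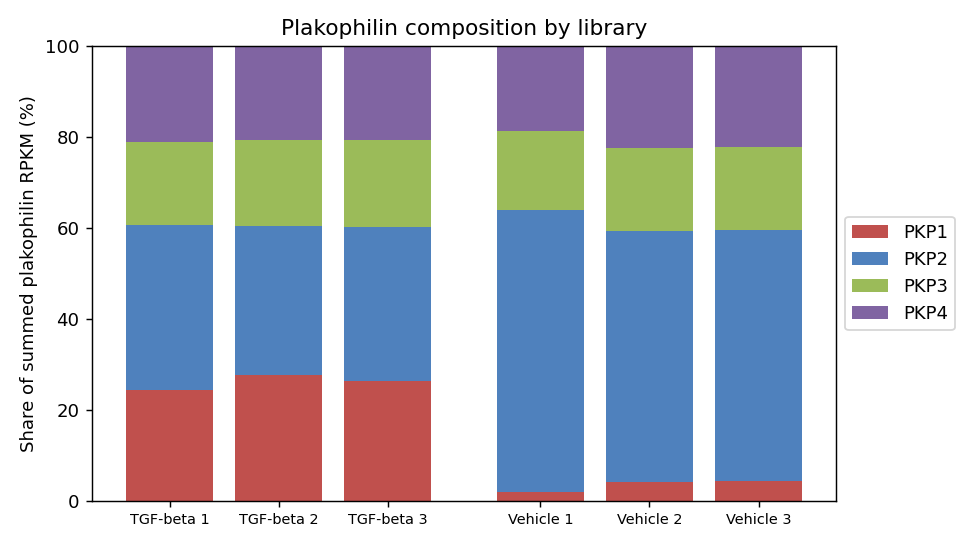
Share of PKP1, PKP2, PKP3 and PKP4 in the summed plakophilin RPKM of each library (stacked bars, percent), TGF-beta libraries on the left and vehicle libraries on the right. PKP1 takes 24.3 to 27.6% with TGF-beta and 2.0 to 4.47% with vehicle, and PKP2 takes 32.8 to 36.3% and 55.0 to 61.8%.

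Desmoplakin, the plakin without which desmosomes do not attach to keratins, was not called. DSP (hg38 chromosome 6, 7541575 to 7586717) measured 200, 208 and 200 CPM in TGF-beta libraries and 264, 220 and 194 CPM in vehicle libraries, so that vehicle replicate 3 lay below every treated library. The log2 fold change was -0.16 (95% interval -0.41 to 0.10, adjusted p = 0.287 by edgeR). DSP was called lower without vehicle replicate 3 (-0.26) and without a filter on low counts (-0.16), with adjusted p = 0.0196 and 0.0208 by edgeR, while its value was -0.033 without vehicle replicate 1. Relative to DSG2, its RPKM was 0.406, 0.438 and 0.414 with TGF-beta and 0.614, 0.553 and 0.513 with vehicle, groups that do not overlap (exact permutation p = 0.1, 0.127 adjusted over 14).

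PERP, a target of p53 and p63 (hg38 chromosome 6, 138088505 to 138107511), measured 56.0, 52.5 and 55.0 CPM with TGF-beta and 50.5, 47.3 and 45.5 CPM with vehicle. The groups did not overlap, by a narrow margin. PERP rose by 0.19 on the log2 scale (SE 0.05, adjusted p = 0.0141 by edgeR). The call was lost without TGF-beta replicate 1, TGF-beta replicate 3 or vehicle replicate 3 (adjusted p = 0.0568, 0.0512 and 0.0547 by edgeR), with library totals alone (0.065, adjusted p = 0.345 by edgeR) and by limma on log2(RPKM + 1) and log2(RPKM + 0.1) (adjusted p = 0.138 by limma for both).

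By mean RPKM the order of the members with TGF-beta was DSG2 (19.8), DSP (8.29), PKP2 (6.49), PERP (5.25), PKP1 (4.95), PKP4 (3.93), PKP3 (3.58), DSC2 (0.0288), DSC3 (0.0129) and DSG3 (0.00335). With vehicle it was DSG2 (17.5), PKP2 (12.9), DSP (9.83), PERP (4.88), PKP4 (4.72), PKP3 (4.05), PKP1 (0.773), DSC2 (0.0391), DSC3 (0.0228) and DSG3 (0.00645). PKP2 stood above DSP with vehicle and below it with TGF-beta. The ranges of neighbours overlapped in only 1 place in each order, between PERP and PKP1 with TGF-beta and between PERP and PKP4 with vehicle.

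The profiles nearest to that of DSP over the 6 libraries, by the root mean square distance of centred log2 CPM among protein-coding genes averaging 5 CPM or more, included those of MCC (0.0229) and HIVEP3 (0.0308). Those nearest to DSG2 were RANBP1 (0.00867), RP11-73M18.2 (0.0150) and ARPC4-TTLL3 (0.0152). A small distance describes similar levels across these libraries only.

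Of 10 further genes listed as partners of the desmosome and its plaque, 5 were tested, and 1 was called higher and 1 lower (2 lower without vehicle replicate 1, with library totals alone, by DESeq2 and by limma, and 2 each way without a filter). Over all genes tested 19.7% were called higher and 20.4% lower. The median of the list was -0.24 on the log2 scale, the value of JUP, which was not called, against -0.01 over all genes tested. PPL, the plakin periplakin, measured 126, 120 and 129 CPM with TGF-beta and 328, 313 and 308 CPM with vehicle, a log2 fold change of -1.34 (SE 0.05, adjusted p = 1.06e-08 by edgeR). PLEC, which encodes plectin, a plakin of hemidesmosomes, rose (log2 0.43, SE 0.06, adjusted p = 0.000317 by edgeR).

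Plakoglobin, shared by desmosomes and adherens junctions, was uneven in vehicle. JUP measured 126, 132 and 145 CPM in the TGF-beta libraries and 88.5, 192 and 196 CPM in the vehicle libraries, with vehicle replicate 1 below every treated library and the other two above them. JUP was not called (log2 -0.24, SE 0.35, adjusted p = 0.635 by edgeR). Without vehicle replicate 1 it was called lower (-0.53, adjusted p = 6.24e-11 by edgeR), in a fit whose remaining vehicle libraries lay close together.

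Keratins, the filaments that desmoplakin anchors, rose in 7 of 13 tested genes (8 of 14 without vehicle replicate 1). Of them 1 fell (4 without vehicle replicate 1, 2 without a filter, 0 by limma on fewer genes). The median was 0.78 on the log2 scale, the value of KRT6B, which was scarce and not called (adjusted p = 0.146 by edgeR). KRT16, a keratin of stressed epidermis, had the largest rise, to 6.52 ± 0.634 CPM with TGF-beta against 1.15 ± 0.111 CPM with vehicle (log2 2.50, adjusted p = 1.66e-07 by edgeR). KRT7 rose too (0.95), as did KRT17 (2.39), KRT6A (2.42), KRT14 (1.91), KRT5 (1.16) and KRT8 (0.51) on the log2 scale, of which all but KRT7 were picked out after their values were seen. KRT14 and KRT5 were scarce, at 0.604 and 2.04 CPM with TGF-beta against 0.154 and 0.930 CPM with vehicle. KRT6A was uneven in vehicle, at 13.4, 5.68 and 5.15 CPM in libraries 1 to 3. The 5 not called included KRT18 (-0.03), KRT19 (-0.17) and KRT80 (-0.18), also picked out afterwards. These were abundant, at 766, 289 and 250 CPM with TGF-beta and 783, 326 and 282 CPM with vehicle. KRT5 lost its call without TGF-beta replicate 1 or 3 or vehicle replicate 2 (adjusted p = 0.0975, 0.0888 and 0.104 by edgeR). KRT15, a basal keratin, fell (-2.37). KRT6A and KRT6B, and KRT14, KRT16 and KRT17, have near-identical copies, so the split of reads between them is uncertain.

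Hemidesmosome genes, which fasten cells to the basement membrane, rose in 4 of 7 and fell in 1 (3 without vehicle replicate 1, and 2 with library totals alone, without a filter, by DESeq2 or without TGF-beta replicate 3), and their median was 0.25 on the log2 scale. The integrin gene ITGA6 fell (-0.87, SE 0.15, adjusted p = 0.00468 by edgeR). Adherens junction and p120 family genes, relatives of the plakophilins, rose in 3 of 7 (4 without vehicle replicate 1) and fell in 3 (median 0.12). The changes were led by CDH2 and by CDH1, the E-cadherin gene (-0.70, SE 0.17, adjusted p = 0.0261 by edgeR). CDH1 was not called without a filter on low counts (adjusted p = 0.0790 by edgeR) or without TGF-beta replicate 1, 2 or 3 (0.0734, 0.0739 and 0.0724). It measured 306, 219 and 204 CPM in vehicle libraries 1 to 3.

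Transcription factors linked to junction genes moved as follows. Of 8 known for epithelial-mesenchymal transition, 6 rose and 1, TWIST1, fell (-0.33, 2 lower without vehicle replicate 1; adjusted p = 0.0860, 0.0967 and 0.125 by edgeR without TGF-beta replicate 1, 2 or 3), with a median of 0.47. SNAI1 (3.17) and SNAI2 (1.80), whose proteins bind the E-box form marked above, rose, SNAI2 to 63.1 ± 3.24 CPM with TGF-beta against 18.1 ± 0.661 CPM with vehicle. Of 13 epithelial factors, 2 rose and 3 fell (4 and 6 without vehicle replicate 1, 3 and 5 without a filter, 2 and 6 with library totals alone, 1 and 1 by limma on log2(RPKM + 1), which tests fewer genes), with a median of -0.21. GRHL2, a grainyhead factor that maintains epithelial junction genes, fell (-0.46, adjusted p = 0.00638 by edgeR). EHF fell (-2.22, adjusted p = 0.0421 by edgeR), but was not called without any 1 TGF-beta replicate (0.108 to 0.120), without vehicle replicate 2 (0.0542) or without a filter (0.0982). Its level was 10.8, 3.97 and 3.43 CPM in vehicle libraries 1 to 3. OVOL1 rose (1.25).

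TP63, which encodes the p63 regulator of stratified epithelia and of PERP in mouse skin, measured 0.616, 0.574 and 0.439 CPM with TGF-beta and 0.525, 1.39 and 1.76 CPM with vehicle. Its log2 fold change was -1.20 (adjusted p = 0.0595 by edgeR), and it was called lower without vehicle replicate 1 (-1.52, adjusted p = 1.21e-06), without a filter (5.61e-06) and with library totals alone (0.0359) by edgeR, and by DESeq2 (0.0240). Of 10 p53 targets listed beside PERP, 2 rose and 5 fell (3 without vehicle replicate 3), with a median of -0.19. CDKN1A, the p21 cell cycle inhibitor gene, rose (0.79) and the stress cytokine gene GDF15 fell (-0.79; adjusted p = 0.0555 by edgeR without vehicle replicate 3). Genes of desmosome shedding, uptake and calcium supply rose in 3 of 9 (4 without vehicle replicate 1), with a median of 0.12. Of them 3 fell (4 without vehicle replicate 1, 1 without TGF-beta replicate 2). The changes were led by the sheddase gene ADAM10 (0.38) and by FLOT2, a flotillin gene (-0.59).

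**Figure D4:**
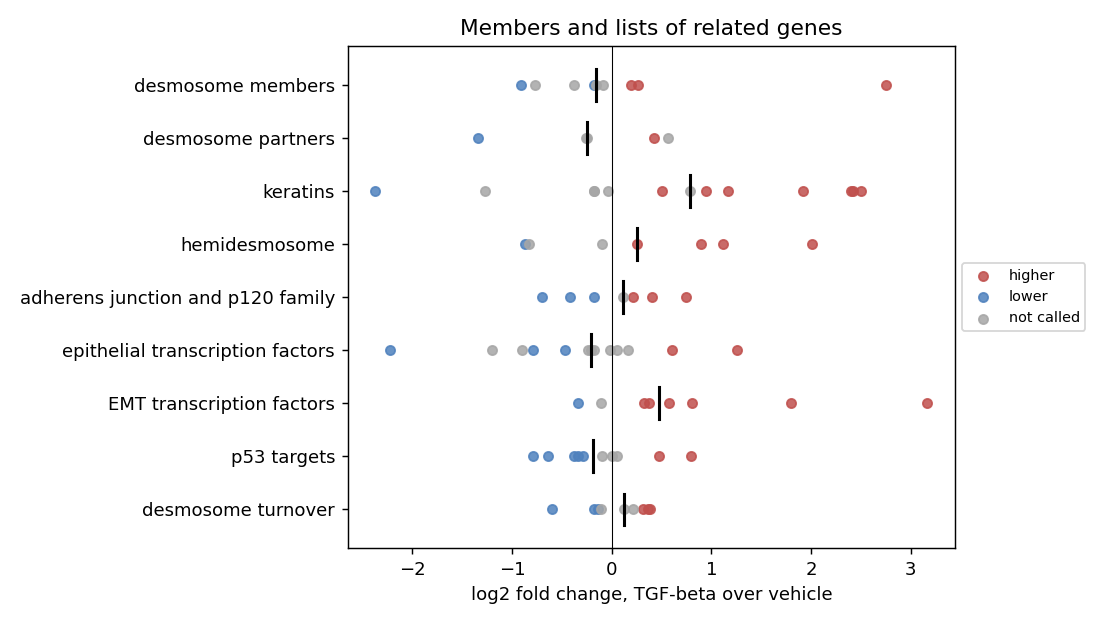
Log2 fold change, TGF-beta over vehicle, of each tested gene (points, coloured by call) in the 9 tested members and in 8 lists of related genes, with the median of each list (black bars). The median is -0.16 for the members, 0.78 for keratins and 0.47 for factors of epithelial-mesenchymal transition.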

How the data were processed

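Reads per gene were deposited for 6 H69 libraries in 1 table, grouped by the treatment in the labels (3 TGF-beta, 3 vehicle). The count columns hold raw whole-number counts, per the file headers. The RPKM columns, per the file headers, are RPKM computed by the authors. Per the submitters' processing notes the tools were bcl2fastq, STAR 2.6.1 and featureCounts of Subread, with build hg38. Strandedness, the treatment of reads mapping to several places and the annotation release are not given in the sources used here.

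Counts were fitted with edgeR 4.0.16 in R 4.3.3 (filterByExpr with a minimum count of 10, TMM, robust quasi-likelihood test, Benjamini-Hochberg over 20992 genes), without a block, and the script was tested on simulated data. Alternatives were RLE factors, library totals alone, no filter, at least 1 CPM in 3 libraries, DESeq2 1.42.0, limma 3.58.1 on RPKM (pseudocounts 1 and 0.1, mean RPKM 0.5 or more), a replicate block, and each library left out. Standard errors were derived from the fold change and its F statistic. Shares and ratios of RPKM were compared by exact permutation tests over libraries. The depth of 37205862 to 54160521 reads limits cadherins of a few reads.

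The 10 members and the gene lists were chosen with earlier results of these data known. Besides members, the text names the called gene with the largest rise and fall of each list, JUP, CDH1, SNAI2, TP63, GRHL2, CDKN1A, KRT7, the cadherin cluster with its neighbours, and the nearest profiles of DSP and DSG2, except for items that are not reported here. Promoter windows (RefSeq, GRCh38.p14) matched 8 of 10 members, and gene bounds in GENCODE 29 equalled the file's for all members but DSC2, whose end differed.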

Additional observations from a re-analysis of the deposited data

How the results depend on the processing

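PKP1, PKP2 and PKP4 kept their direction and call in all 14 alternative fits, over log2 fold changes of 1.75 to 2.91, -1.04 to -0.77 and -0.30 to -0.16. No member changed direction in any fit that tested it. With library totals alone 1 member was called higher and 4 lower, and over all genes 2698 higher and 7282 lower, against 4145 and 4278; DSG2 (0.14) and PERP (0.065) were then not called, and DSC3 (-0.89) and PKP3 (-0.22) were called lower. By limma on log2(RPKM + 1) and log2(RPKM + 0.1), 2406 and 2402 of 15143 genes tested were called higher and 4510 and 4518 lower, PERP (0.088 and 0.10) was not called and PKP3 (-0.14 and -0.17) was called lower. Without a filter DSP was called lower (-0.16). The cause of these differences was not tested.

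Leaving out 1 library gave 2 to 3 members higher and 2 to 4 lower, the 4 being without vehicle replicate 1. Over all genes tested it gave 3204 to 5428 higher and 3055 to 5556 lower. The largest of both counts came without vehicle replicate 1, with 21781 genes tested. Log2 fold changes were 0.16 to 0.23 for PERP, 0.22 to 0.31 for DSG2, -0.26 to -0.033 for DSP, -0.50 to -0.17 for DSC2 and -0.90 to -0.61 for DSC3. Over the 8 lists of related genes, leaving out 1 library gave 27 to 33 of the tested genes higher and 12 to 29 lower. With all libraries these were 28 and 18. The 29 came without vehicle replicate 1, where calls over all genes rose too. In summed counts not divided by length, the PKP1 share differed by 21.0 percentage points between groups, against 22.6 by RPKM, and the DSG2 share of the cadherins by 0.251 against 0.166.

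The labels do not say whether the replicate numbers pair the samples, and correlations this small from 3 libraries per group cannot decide it. Same-numbered deviations from the group means correlated at 0.0652, 0.0623 and 0.0129, and differently numbered ones at -0.0702 to 0.0136. TGF-beta replicate 3 correlated slightly better with vehicle replicate 2 (0.0136) than with vehicle replicate 3. With the replicate block 4247 genes were called higher and 4330 lower, and the same numbers of members, 3 and 2, while hemidesmosome genes and keratins each had 2 called lower in place of 1.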
